A study of Mus musculus with 9 samples.

Results

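Skeletal muscle cells that have left the cell cycle and begun to differentiate, but have not yet all fused, are called myocytes. The transcriptome of untreated myocytes was described here from 3 control arrays, the ones titled as controls 1, 2 and 3 in the labels, out of 9 arrays in 3 groups of 3. The cells were primary myoblasts grown from satellite cells, the muscle stem cells, of hindlimb muscle of adult wild-type mice of the C57BL/6 strain (the N substrain, per the methods). They were seeded at 30000 cells per cm2 on Matrigel and placed in low-serum medium, and the other 6 cultures then received TGFB1 at 20 ng/ml or the TGFβ receptor inhibitor ITD-1 after 24 h of differentiation, for another 24 h. The controls received neither agent, and no treated array enters any value below. The sources used here do not state the hour at which the controls were collected. Each array reads one culture, and the cultures count as biological replicates in the study.

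RNA was hybridised to Affymetrix MouseGene 2.0 ST arrays, and each probe set, a group of short probes summarised into 1 value, stands for 1 gene. Values are log2 signals, so 1 unit is a factor of 2 in signal. Of 25428 probe sets, 24704 carried a gene symbol of their own and were ranked by their mean over the 3 control arrays, which ran between 2.08 and 13.42 with a median of 4.14. A probe set was called high at or above the 90th percentile, a mean of 7.93. It was called near background at or below 4.11, the 95th percentile of 1365 probe sets for odorant and vomeronasal receptors, which belong to sensory neurons. By these limits 2471 probe sets (10%) were high, 10006 (40.5%) were middle and 12227 (49.5%) were near background. The high share is set by the rule and carries no information of its own, but it is the share against which each gene list below is read. The lists were chosen with earlier results of these data known, so a list's share is a description and not a test. Just inside the high limit stood *Ggps1* (7.93) and just outside it *Ighv2-3* (7.93), and *Kirrel2* (4.11) and *Tet1* (4.11) were the neighbours just above and at the background limit.

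Probes bind with unequal strength, so the order of genes is a description and no fold is given between genes. A low value does not show that a transcript was missing. *Gapdh*, a glycolytic enzyme of every cell, read 5.00, 4.99 and 4.76 in cultures 1, 2 and 3. The cytoplasmic tubulin gene *Tuba1b* read 3.47, 3.75 and 3.11, and 21 of 54 ribosomal protein genes were near background. *Tuba1b* and these ribosomal genes are expressed in all dividing and growing cells, and many have near-identical copies elsewhere in the genome. How probes shared by such copies were handled is not given in the sources used here.

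**Figure D1:**
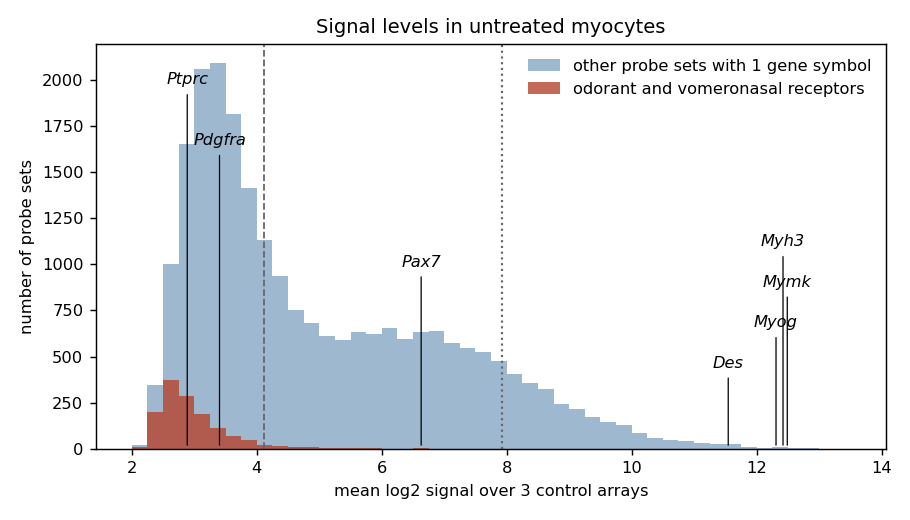
Number of probe sets (vertical axis) by mean log2 signal over the 3 control arrays (horizontal axis, bins of 0.25), with odorant and vomeronasal receptors in red and all other probe sets with 1 gene symbol in blue. The dashed line is the near-background limit of 4.11 and the dotted line the high limit of 7.93. *Myog*, *Mymk*, *Myh3* and *Des* lie between 11.55 and 12.49, at the far right, while the fibroblast gene *Pdgfra* and the leukocyte gene *Ptprc* lie among the receptors.

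The 3 cultures were close to each other. Pearson's r between pairs of arrays over all ranked probe sets was between 0.994 and 0.996, as a description across genes, which are not independent replicates. The median SD over the 3 arrays was 0.093, and it was 0.073 for high, 0.105 for middle and 0.090 for near-background probe sets. Of the ranked probe sets, 23213 (94.0%) fell in the same band in each array taken alone, and 0 were high in one array and near background in another. The 3 values spanned over 1 log2 unit for 142 probe sets (0.575%). For 434 probe sets the 3 deposited values were identical, so an SD of 0 in this data set does not measure the precision of a culture.

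The 4 marker genes chosen to check the cells, *Myog*, *Mymk*, *Des* and *Myh3*, were high. Skeletal muscle differentiation is driven by the basic helix-loop-helix factors *Myf5* and *Myod1*, which commit the cell, and *Myog*, which opens the terminal program. These factors bind E-boxes with the MEF2 proteins as partners. The cell then assembles sarcomeres from embryonic isoforms of the contractile proteins, places acetylcholine receptors on its membrane, and fuses through the membrane proteins *Mymk* and *Mymx*. *Myog* read 12.33, 12.31 and 12.29 in cultures 1, 2 and 3. *Mymk* read 12.52, 12.50 and 12.46. *Myh3*, the embryonic myosin heavy chain, read 12.41, 12.45 and 12.41, and *Des*, the muscle intermediate filament protein, read 11.62, 11.57 and 11.44. Each of the 4 was high in each culture, and the widest of them, *Des*, had an SD of 0.09.

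Among the 30 named genes with the highest signal, means lay between 11.70 and 12.92, and 13 of the 30 stood on a muscle list. The share of all probe sets on a muscle list was not counted. On any list stood 23 of the 30, next to 862 of the 24704 ranked probe sets and 279 of the 2471 high ones. The highest was *Actc1*, the cardiac isoform of sarcomeric actin that skeletal muscle uses before birth and in regeneration, at 12.92, 12.96 and 12.88. Contractile genes in this group were *Tnnt2* (mean 12.53), *Myh3*, *Acta1* (12.31), *Mylpf* (12.06), *Tpm2* (11.88) and *Mybph* (11.78), with the Z-disc genes *Ankrd1* (11.91) and *Pdlim3* (11.81). Fusion and membrane genes were *Mymk*, the tetraspanin *Cd81* (12.54) and the adhesion molecule *Ncam1* (12.38), and *Chrna1* (12.37) and *Sntb1* (11.88) encode proteins of the postsynaptic membrane and the dystrophin complex. The transcription factors *Myog* and *Mef2a* (11.70) were also among them. Genes on no muscle or fusion list included *Cdkn1a* (12.74), which encodes the cyclin-dependent kinase inhibitor p21, and the imprinted RNA *H19* (12.53). The chaperone *Hspa8* (12.80), the iron store *Fth1* (12.30) and the cytoskeletal genes *Acta2* (12.76), *Vim* (12.47) and *Cfl2* (11.73) were on neither kind of list as well. The remaining members were *Lrrn1* (12.23), *Lgals1* (12.14), *C1qtnf3* (12.12), *Cox6a1* (11.98), *Atp5b* (11.97), *Ywhae* (11.96) and *Pabpc1* (11.87). The largest SD among the 30 was 0.18, for *Mybph*. No member of a signaling or matrix list was among the 30. To reach the 30 genes, 12 higher probe sets were passed over, of which 7 were predicted genes or pseudogenes and 5 were small RNAs.

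**Figure D2:**
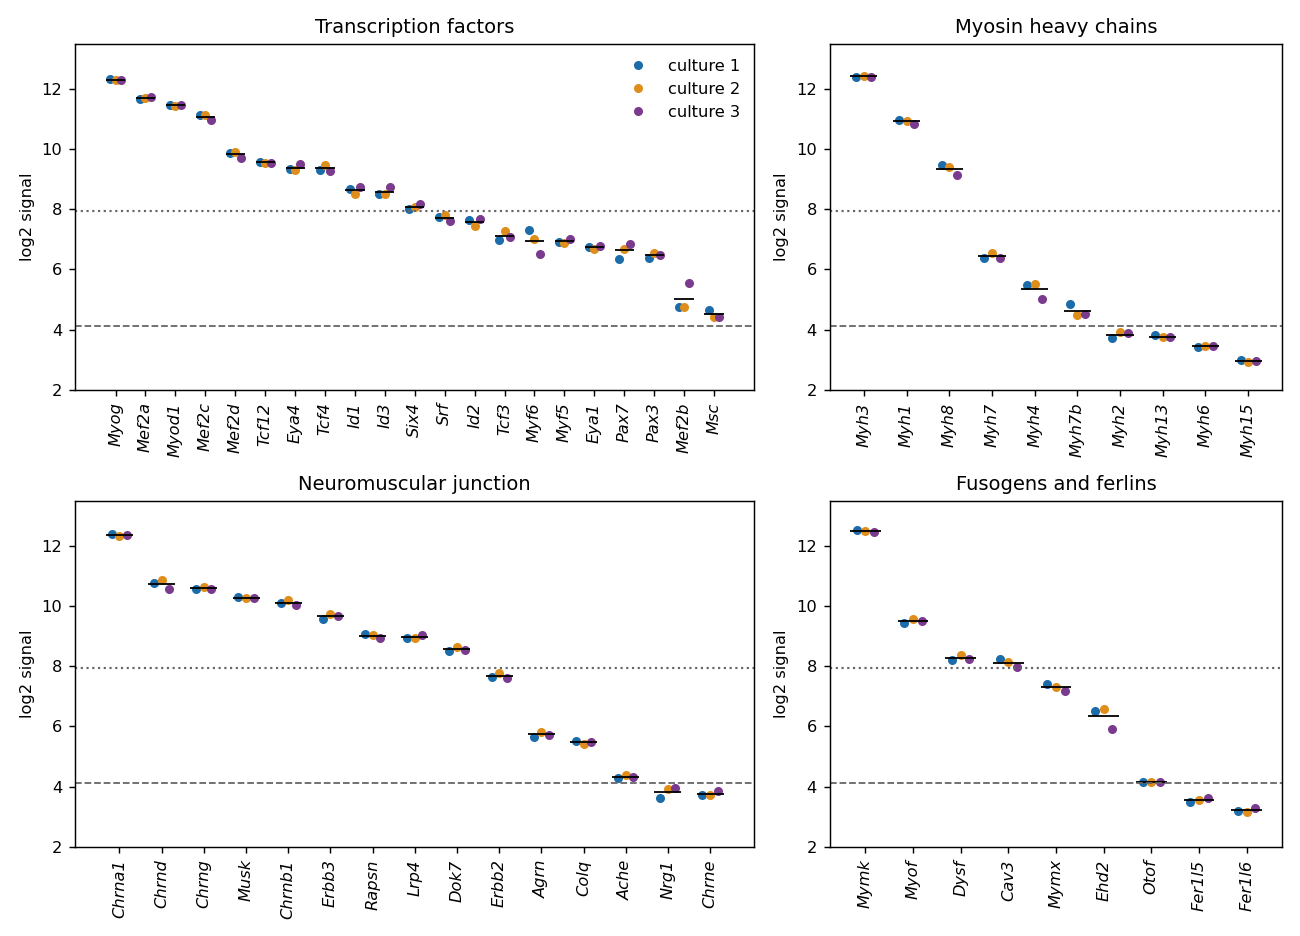
Log2 signal (vertical axes) of every measured member of 4 lists, genes ordered by mean, with 1 point per control culture and a bar at the mean. The dashed line is the near-background limit and the dotted line the high limit. *Myog*, *Myh3*, *Mymk* and *Chrna1* lead their panels at 12.31 to 12.49, and the 3 cultures overlap closely for most genes, with wider spread for *Myf6*, *Mef2b*, *Myh4* and *Ehd2*.

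Of 21 measured myogenic transcription factors, 11 were high, 10 were middle and 0 were near background, with a median of 8.08 against 4.14 over all probe sets. After *Myog* the order was *Mef2a* (mean 11.70), *Myod1* (11.47), *Mef2c* (11.08) and *Mef2d* (9.83), which are the muscle regulatory factor that precedes *Myog* and its MEF2 partners. Their E-protein partners *Tcf12* (9.56) and *Tcf4* (9.36) were high too, and *Tcf3* (7.11) was middle. *Eya4* (9.39) and *Six4* (8.08), of the SIX-EYA pair of activators upstream of the myogenic factors, were high and *Eya1* (6.74) was middle. The inhibitors *Id1* (8.64) and *Id3* (8.58), which hold E-proteins away from DNA, were high, and *Id2* (7.60) and *Srf* (7.72), the serum response factor, were middle.

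Several other factors were middle, *Myf5* among them, while *Myod1* was high. *Pax7*, which marks satellite cells, read 6.36, 6.68 and 6.85, and *Pax3*, its relative, 6.38, 6.54 and 6.48. *Myf5* read 6.93, 6.87 and 7.01, and *Myf6*, the factor of mature fibers, 7.30, 7.00 and 6.50. Means of *Myf5* and *Myf6* were 6.94 each, but the spread of *Myf6* (SD 0.40) was wider than that of *Myf5* (SD 0.07), with culture 3 lowest for *Myf6*. *Mef2b* was 5.54 in culture 3 against 4.75 in each of the other two, and *Msc*, a repressor that competes with *Myod1*, averaged 4.51.

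Most sarcomeric genes were high. Of 20 thin filament genes 15 were high, 3 middle and 2 near background, with a median of 10.39. Of 16 genes for myosin light chains and thick filament proteins 10 were high and 5 near background. Of 25 genes of the Z-disc and of myofibril assembly 16 were high and 3 near background. In each of these lists more than 60% of members were high, next to 10% of all probe sets. *Neb* (11.42) and *Ttn* (10.98), the giant rulers of thin filament and sarcomere, the muscle actinins *Actn3* (11.29) and *Actn2* (11.21), and *Cryab* (11.42), *Klhl41* (10.18) and *Smyd1* (10.11), which serve assembly, were all high. The near-background members were *Nebl* and *Tnni3* of the thin filament, *Myoz1*, *Myoz3* and *Xirp2* of the Z-disc, and *Myl2*, *Myl3*, *Myl7*, *Mybpc2* and *Mybpc3* of the thick filament.

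Of 10 sarcomeric myosin heavy chains, 3 were high, 3 middle and 4 near background. The high ones were the embryonic *Myh3*, then *Myh1* at 10.98, 10.94 and 10.86, and the perinatal *Myh8* at 9.46, 9.40 and 9.15. *Myh1* and *Myh2* encode the adult IIX and IIA chains of fast fibers. *Myh2* read 3.71, 3.92 and 3.88, near background, and the IIB chain *Myh4* was middle at 5.48, 5.50 and 5.02. These genes lie in 1 cluster and are similar in sequence, so some signal could be shared among them, which was not tested. The slow chain *Myh7* averaged 6.44 and *Myh7b* 4.62, and *Myh13* (3.77), the cardiac *Myh6* (3.44) and *Myh15* (2.96) were near background.

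Both isoforms of several other contractile pairs were high. *Tnnt2*, the troponin T of heart and early skeletal muscle, averaged 12.53, *Tnnt3* of fast fibers 11.35 and *Tnnt1* of slow fibers 9.52. Of the troponin I genes the slow *Tnni1* averaged 11.55 and the fast *Tnni2* 8.48, while *Tnni3* of adult heart was near background at 3.78, 3.79 and 3.78. *Tnnc1* of slow muscle averaged 11.46 and *Tnnc2* of fast muscle 10.86. *Myl4*, the embryonic and atrial light chain, read 10.86, 10.85 and 10.80, and the ventricular and slow light chain *Myl2* read 3.90, 3.72 and 3.85. Of 10 cardiac markers 8 were near background, next to 49.5% of all probe sets, among them *Nppa* (4.02), *Nppb* (3.88), *Myl7* (3.56), *Ryr2* (3.22) and *Tbx20* (2.84), with *Gata4* (5.63) and *Nkx2-5* (5.35) middle.

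Of 29 genes of excitation-contraction coupling, which links the membrane potential to calcium release, 16 were high, 9 middle and 4 near background. The highest were *Casq2* (11.67), a calcium store of the reticulum, *Bin1* (11.18), which shapes T-tubules, and the calcium pump *Atp2a1* (10.84). *Casq2*, the calsequestrin of heart and slow fibers, lay at 11.73, 11.69 and 11.59, and *Casq1* of fast fibers at 9.81, 9.44 and 9.23. The release channel *Ryr1* averaged 9.55 and *Ryr3* 3.68, and the voltage sensor *Cacna1s* averaged 9.18. Among pump regulators the ranges were wide, with *Sln* at 6.41, 6.60 and 5.87 and *Pln* at 5.42, 5.51 and 4.76, lowest in culture 3 for both. *Pvalb* (3.51), the calcium buffer of adult fast fibers, and *Clcn1* (3.58), its chloride channel, were near background.

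Of 15 genes of the dystrophin complex, which ties the cytoskeleton to the basal lamina, 6 were high, led by *Sntb1* (11.88), *Dag1* (10.68) and *Sgca* (9.95). *Dmd* itself read 8.36, 8.40 and 8.34, and its relative *Utrn* 8.55, 8.59 and 8.58. The lowest were *Nos1* (3.40) and *Sgcd* (3.26). The last of these encodes delta-sarcoglycan, while its partners *Sgca* and *Sgcb* (9.15) were high.

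Of 15 genes of the neuromuscular junction, 9 were high, 4 middle and 2 near background, with a median of 8.98. The acetylcholine receptor of muscle holds α, β and δ subunits, and a γ subunit before innervation that an ε subunit replaces afterwards. *Chrna1* for α (mean 12.37), *Chrnd* for δ (10.74) and *Chrnb1* for β (10.11) were high. *Chrng* for γ read 10.59, 10.64 and 10.59, whereas *Chrne* for ε read 3.70, 3.70 and 3.85. The fetal subunit was thus high and the adult subunit near background in each culture. *Musk* (10.27), *Rapsn* (9.01), *Lrp4* (8.98) and *Dok7* (8.57), which gather the receptors on the muscle side, were high. The signals that a nerve supplies lay lower, with *Agrn* at 5.73 and *Nrg1* at 3.83.

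The 180 bases before the annotated start of 5 of these genes are shown because E-boxes, with the letters CANNTG, are the sequences that *Myog* and *Myod1* are known to bind. Capitals mark each E-box, which reads as CANNTG on either strand. The sequences are from RefSeq on build GRCm38.p6 and are written along the gene's own strand. They lie at chr1:134289824-134290003 on the plus strand for *Myog*, chr2:73580339-73580518 on the minus strand for *Chrna1*, chr1:87205631-87205810 on the plus strand for *Chrng*, chr11:70619195-70619374 on the minus strand for *Chrne*, and chr7:127211428-127211607 on the plus strand for *Mylpf*.
Myog: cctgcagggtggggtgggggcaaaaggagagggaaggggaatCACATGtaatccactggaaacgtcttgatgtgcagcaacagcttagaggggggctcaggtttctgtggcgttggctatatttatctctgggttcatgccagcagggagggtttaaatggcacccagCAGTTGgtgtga
Chrna1: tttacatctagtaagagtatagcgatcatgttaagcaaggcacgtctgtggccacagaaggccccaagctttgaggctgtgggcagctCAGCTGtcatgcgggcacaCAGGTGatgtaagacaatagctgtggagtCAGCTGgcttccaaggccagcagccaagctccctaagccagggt
Chrng: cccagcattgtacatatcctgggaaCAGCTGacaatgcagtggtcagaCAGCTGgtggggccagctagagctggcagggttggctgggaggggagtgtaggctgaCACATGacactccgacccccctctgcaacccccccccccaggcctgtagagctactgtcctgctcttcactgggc
Chrne: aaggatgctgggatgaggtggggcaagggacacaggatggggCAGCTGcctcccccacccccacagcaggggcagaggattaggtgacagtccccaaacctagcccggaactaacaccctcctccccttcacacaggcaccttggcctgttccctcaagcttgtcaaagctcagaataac
Mylpf: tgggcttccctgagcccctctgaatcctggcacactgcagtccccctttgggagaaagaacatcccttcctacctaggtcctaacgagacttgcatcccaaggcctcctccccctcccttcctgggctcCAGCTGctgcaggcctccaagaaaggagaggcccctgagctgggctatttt

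*Chrna1* and *Chrng* held 3 E-boxes each, *Myog* held 2, and *Chrne* and *Mylpf* held 1 each. Those of *Chrna1* began at positions -92, -73 and -44 from the start, and those of *Chrng* at -155, -132 and -75. At least 1 E-box stood in the same stretch of 54.1% of all 32851 RefSeq windows and 2 or more in 20.1%, so the letters are common. The form CAGCTG, which *Chrna1*, *Chrng*, *Chrne* and *Mylpf* all hold, stood in this stretch of 9.92% of windows. *Chrne*, near background here, holds it as well as the high genes. A match is a description of the letters and not a binding site.

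Over the whole windows of 300 bases, 250 before and 50 after each start, CAGCTG stood in 16.3% of all windows. It stood in 15.5% of windows of high genes, 16.3% of middle and 16.4% of near-background genes, so the bands as a whole hardly differed. Among high members of lists it stood in 13 of 41 windows (31.7%) of sarcomere genes, 6 of 11 (54.5%) of excitation-contraction coupling genes, 3 of 6 (50%) of junction genes, 2 of 12 (16.7%) of respiratory chain genes and 0 of 22 of tricarboxylic acid cycle genes. Any E-box, CANNTG, stood in 80.5%, 72.7%, 83.3%, 75% and 77.3% of the same windows in that order. It stood in 72.3% of all windows and 60.9% of those of high genes. By this wider motif the muscle and metabolic lists overlapped. The windows come from 36, 9, 5, 11 and 17 genes in that order, some with several starts that share bases, and no test was made. Median GC content was 61.7% in windows of high genes and 50.3% in those of near-background genes.

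Cell fusion needs the cells to recognise each other, remodel actin at the contact and join membranes. Of 9 fusogens and ferlins, 4 were high. *Mymk* averaged 12.49, and the ferlins *Myof*, at 9.45, 9.58 and 9.52, and *Dysf*, at 8.21, 8.37 and 8.25, which act in membrane fusion and repair, were high with *Cav3* (8.12). *Mymx*, the small protein that completes fusion together with *Mymk*, was middle at 7.41, 7.31 and 7.19. *Ehd2* was 6.51, 6.59 and 5.90, lowest in culture 3. *Otof* averaged 4.16, just above the background limit, and *Fer1l5* (3.55) and *Fer1l6* (3.21) were near background.

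Of 26 adhesion receptors with a part in fusion, 11 were high, 9 middle and 6 near background. *Cd81*, *Ncam1* and the cadherin *Cdh2* (11.20) led them, followed by *Itgb1* (10.30) and *Itga7* (9.76), the laminin receptor of muscle. *Cdon* was high at 9.35 and its relative *Boc* near background at 4.05. The listed phosphatidylserine and engulfment receptors *Adgrb1* (3.77), *Stab2* (3.29) and *Adgrb3* (2.92) were near background. Receptors of that kind outside this list are not counted here. Of 24 genes of actin remodelling at the fusion site, 10 were high, led by *Cdc42* (11.63), *Arpc2* (10.91) and *Brk1* (9.60), and the only one near background was *Was* (3.51), the form of blood cells, while its ubiquitous relative *Wasl* averaged 7.99.

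Of 36 genes of the cytoplasmic cytoskeleton, 21 were high. *Acta2*, the actin of smooth muscle, read 12.79, 12.77 and 12.74, while other smooth muscle genes did not share that level. *Tagln* averaged 7.93, at the lower edge of the high band, and *Myh11* was middle at 4.28. *Actg2* (3.68) and *Cnn1* (3.26) were near background. *Myl6* had the widest spread of any list member, at 4.14, 4.65 and 2.90. Of 24 genes of focal adhesions 10 were high, led by *Actn4* (10.22), *Vcl* (10.02) and *Actn1* (9.45).

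**Figure D3:**
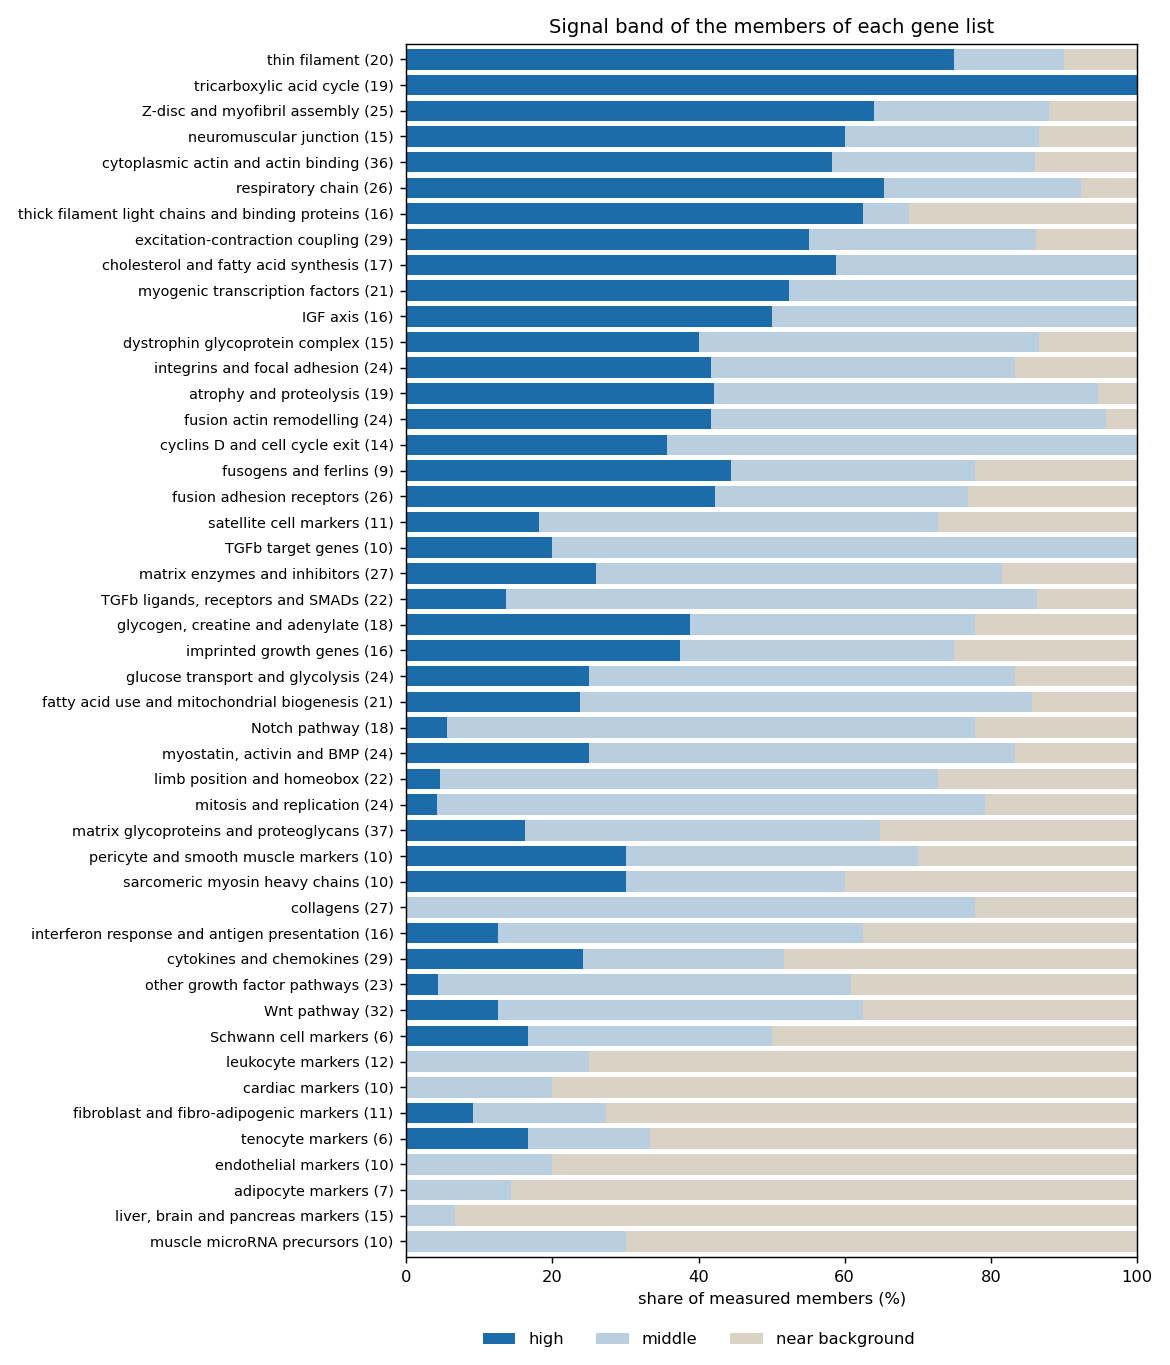
Share of measured members (horizontal axis, percent) in the high, middle and near-background bands for each gene list of at least 6 measured members, with the number of members in parentheses. Lists are ordered by the median signal of their members, highest at the top. All 19 tricarboxylic acid cycle genes are high, thin filament and Z-disc lists stand beside them, and myosin heavy chains lie far lower with 3 of 10 high. Leukocyte, endothelial, fibroblast and adipocyte markers are mostly near background, but only 3 of 10 pericyte and smooth muscle markers are.

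Of 14 D cyclins, their kinases and genes of cell cycle exit, 5 were high, 9 middle and 0 near background. *Cdkn1a*, which blocks cyclin-dependent kinases when myoblasts exit, read 12.78, 12.76 and 12.68, and *Rb1*, which holds the exit, 10.45, 10.46 and 10.47. *Ccnd3* (9.20), the D cyclin of differentiated muscle, *Ccnd2* (9.57) and *Cdk4* (9.42) were high, and *Ccnd1* (7.44) was middle. The other inhibitors *Cdkn1c* (7.52), *Cdkn2d* (6.39), *Cdkn1b* (6.27), *Cdkn2a* (5.82) and *Cdkn2c* (5.44) and the *Rb1* relatives *Rbl2* (7.21) and *Rbl1* (4.99) were middle as well. Of 24 genes of replication and mitosis, 1 was high, 18 middle and 5 near background, next to 10%, 40.5% and 49.5% of all probe sets. Their median was 5.21, against 4.14 over all probe sets. The near-background count depended on the limit. It was 15 by the 99th percentile of the receptors, 13 by the keratin-associated and defensin genes, and 8 without the array of culture 1. The high one was *Pcna*, at 8.77, 8.59 and 8.40, and the next were *Rrm2* (7.55) and *Ccne1* (6.77). *Mki67*, which marks cycling cells, read 5.76, 5.44 and 5.60, and *Birc5* (3.46) and *Bub1* (3.33) were lowest. In a bulk sample, few cycling cells and little RNA in each cannot be told apart, and the same holds for every marker below.

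All 19 measured genes of the tricarboxylic acid cycle and pyruvate dehydrogenase were high, between 8.10 for *Dlat* and 10.86 for *Mdh2*, with *Idh3g* (10.61) and *Idh3b* (10.17) next. Of 26 genes of the respiratory chain and ATP synthase 17 were high, led by *Cox6a1* (11.98), *Atp5b* (11.97) and *Atp5a1* (11.24). *Cox6a1*, the widespread form of this subunit, read 12.07, 11.97 and 11.90, and *Cox6a2* of heart and skeletal muscle 10.11, 10.28 and 9.79. Both forms were high, while *Cox4i1* averaged 8.99 and *Cox4i2*, the form of lung, 4.20. *Cox5b* (3.98) and *Cycs* (3.06) were near background, which does not show that their transcripts were missing. By signal, the chain as a list was spread over the 3 bands, with 7 members middle.

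Of 24 genes of glucose transport and glycolysis, 6 were high, 14 middle and 4 near background. *Eno3*, the muscle enolase, averaged 11.59, *Ldha* 10.49, *Tpi1* 10.46 and *Pfkm*, the muscle phosphofructokinase, 8.18. The neuronal *Eno2* averaged 4.83. *Slc2a1*, the glucose transporter of growing cells, averaged 7.72 and the insulin-responsive *Slc2a4* 5.56, and *Pklr* (3.58) and *Slc2a3* (2.94) were lowest.

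Of 18 genes of glycogen, creatine and adenylate metabolism 7 were high, 7 middle and 4 near background. The muscle phosphorylase *Pygm* averaged 10.89 and the liver form *Pygl* 3.56. The muscle glycogen synthase *Gys1* averaged 9.18 and the liver form *Gys2* 3.13. *Gamt* (9.30) and *Gatm* (9.19), which make creatine, were high, and among creatine kinases the brain form *Ckb* was high at 8.90, the muscle form *Ckm* middle at 7.81 and the mitochondrial *Ckmt2* of muscle near background at 4.08. Of 17 genes of cholesterol and fatty acid synthesis 10 were high, led by *Scd2* (10.61), *Msmo1* (9.79) and *Fdft1* (9.55), with *Scd1* (5.52) and *Idi1* (5.05) lowest. Of 21 genes of fatty acid use 5 were high, led by *Acadl* (10.29), *Hadha* (9.92) and *Mb* (9.23), the oxygen store myoglobin, and *Ucp1* (3.23) and *Fabp4* (2.70) were lowest.

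**Figure D4:**
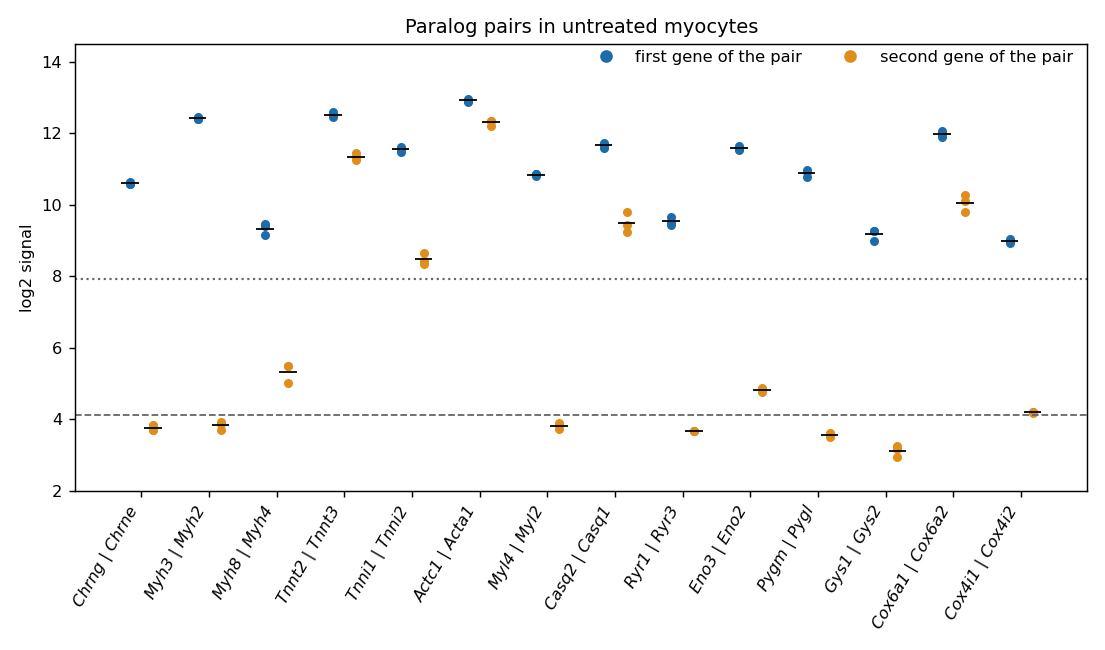
Log2 signal (vertical axis) of 14 pairs of related genes, first gene of each pair in blue and second in orange, with 1 point per control culture and a bar at the mean. The dashed and dotted lines are the near-background and high limits. *Chrng*, *Myh3*, *Myl4*, *Ryr1*, *Pygm* and *Gys1* are high while *Chrne*, *Myh2*, *Myl2*, *Ryr3*, *Pygl* and *Gys2* are near background, and both troponin T, actin, calsequestrin and Cox6a genes are high.

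Matrix genes were split. Of 27 collagens, 0 were high, 21 were middle and 6 were near background, with a median of 4.85. With the 99th percentile of the receptors or the keratin-associated and defensin genes as the limit, 19 or 18 of them were near background. *Col3a1* was the highest, at 6.62, 6.64 and 6.90, followed by *Col5a1* (6.52) and *Col5a2* (6.50), and *Col1a1* averaged 4.80 with *Col14a1* (3.26) and *Col11a1* (3.25) lowest. Of 37 glycoproteins and proteoglycans 6 were high. The small proteoglycan *Ogn* read 11.37, 11.39 and 11.38, and *Sparc*, a collagen-binding protein, averaged 11.05, *Bgn* 10.42, *Thbs1* 9.79 and *Fn1*, fibronectin, 9.67. In the same list *Dcn*, at 3.41, 3.53 and 3.50, *Lum* (2.90), *Aspn* (3.06) and *Postn* (3.38) were near background, so proteoglycans of one family lay at both ends of the range.

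Of 27 matrix enzymes and inhibitors 7 were high. *Timp2*, which blocks metalloproteases and takes part in the activation of *Mmp2*, averaged 11.16, *P4ha1* 8.91 and *P4hb* 8.76, which hydroxylate collagen. *Loxl1* (8.03) was high and its relatives *Lox* (5.41) middle and *Loxl2* (3.19) near background. *Mmp3* (3.15) and *Mmp13* (2.91) were lowest.

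Among signaling genes, the TGFβ ligands, which act through paired receptor kinases and SMAD proteins, lay in different bands. *Tgfb3* was high at 9.94, 9.93 and 9.81, while *Tgfb1* was middle at 6.32, 6.30 and 6.11 and *Tgfb2* middle at 4.74, 4.87 and 4.82. Of 22 TGFβ ligands, receptors and SMADs 3 were high, namely *Tgfb3*, *Smad4* (8.93), the shared SMAD, and *Smurf2* (8.42), and 16 were middle. The receptors *Tgfbr2* (6.34) and *Tgfbr1* (6.10) and the transducers *Smad3* (7.91) and *Smad2* (7.78) were middle, and *Smad9* (3.85) and *Tgfbr3* (3.22) were lowest. Of 10 genes listed as TGFβ targets 2 were high, *Ctps* (8.46) and *Pmepa1* (8.42), and 0 were near background. *Lmcd1* varied most, with 7.89 and 7.79 in cultures 1 and 2 and 7.11 in culture 3. The list of 10 leaves out *Fn1*, *Lox* and *Smad7*, which the paper also treats as TGFβ targets. They were counted on other lists, where *Fn1* was high and *Lox* and *Smad7* (4.98) were middle.

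Of 24 genes of myostatin, activin and BMP signaling, 6 were high. *Mstn*, the muscle growth inhibitor myostatin, read 9.76, 9.77 and 9.61, and *Fst*, which binds and neutralises it, 9.02, 9.04 and 9.09. *Gdf11*, the closest relative of myostatin, averaged 8.66. *Bmp4* (3.30) and *Bmp6* (3.19) were near background, though the BMP receptors *Bmpr1a* (8.40) and *Bmpr2* (8.31) were high.

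The insulin-like growth factor axis had no member near background. Of 16 genes 8 were high and 8 middle, led by *Igf2* at 11.53, 11.58 and 11.50, *Akt1* (9.98) and *Igfbp3* (9.25), and *Igf1* was middle at 7.74, 7.63 and 7.79. *Igf2* shares its imprinted locus with *H19*, and both were high. Of 16 imprinted growth genes 6 were high, with *Peg3* (11.54), *Mest* (11.17), *Zim1* (10.06) and *Plagl1* (8.33) the others, whereas *Dlk1* (3.47), *Slc38a4* (3.17) and *Rtl1* (3.16) were near background.

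Notch, Wnt and growth factor genes were mostly middle or near background, next to 40.5% and 49.5% of all probe sets in those bands. The medians of these lists were 5.81, 4.32 and 4.47 in that order, against 4.14 over all probe sets. Of 18 Notch genes only *Hes6*, a muscle-expressed inhibitor of *Hes1*, was high, at 10.23, 10.23 and 10.06, with *Notch1* (7.45) and *Jag2* (7.41) next and *Hes5* (3.55) and *Dll4* (3.52) lowest. Of 32 Wnt genes 4 were high, led by *Ctnnb1* (9.61), *Gsk3b* (9.58) and *Lrp6* (8.91), which are shared pathway components, and 12 were near background, *Wnt1* (3.34) and *Wnt3a* (3.19) lowest. Of 23 genes of other growth factor pathways *Fgf21* alone was high, and it varied, with 10.01 in culture 2 against 9.32 and 9.28 in cultures 1 and 3. *Met* (7.87), the receptor for hepatocyte growth factor, was middle and its ligand *Hgf* (3.31) near background.

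Of 29 cytokines, chemokines and receptors 7 were high, 8 middle and 14 near background, next to 10%, 40.5% and 49.5% of all probe sets. The near-background share was thus close to that of all probe sets. Among those 14 were *Il6* (2.62), *Csf2* (2.90), *Il15* (2.95), *Tnf* (3.60) and *Il1b* (3.66). The list also counts *Musk*, the receptor kinase of the junction. Its other high members were *Fndc5* (9.96), the precursor of irisin, *Il6st* (9.47), the shared receptor of the interleukin-6 family, *Tnfrsf12a* (9.20), *Mif* (8.90), *Csf1* (8.34) and *Ctf1* (8.02). *Il6* and *Ctf1*, both ligands of that shared receptor, thus lay in opposite bands by their means. *Ctf1* was close to the high limit of 7.93, at 8.14, 7.92 and 7.98, and below it in culture 2. Of 16 interferon response and antigen presentation genes, *B2m* (10.52) and *Ifit1* (8.60) were high, *Stat2* (6.65) was next, and *Oas1a* (2.88) and *Mx1* (2.76) were lowest.

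Of 19 genes of atrophy and proteolysis 8 were high, with *Asb5* (10.52), *Sqstm1* (10.13) and *Map1lc3b* (9.82) at the top and *Fbxo40* (4.21) and *Asb11* (3.44) lowest. *Trim55* averaged 9.58, while the ubiquitin ligases of muscle wasting, *Fbxo32* (7.05) and *Trim63* (6.80), were middle. Of 22 limb and homeobox genes only *Tbx15*, which acts in fast muscle, was high, at 9.74, 9.69 and 9.53. *Hoxc6* (7.37) and *Hoxc10* (6.50) came next. *Tbx4*, a hindlimb gene, averaged 5.96, its forelimb relative *Tbx5* 3.28 and *Pitx1*, the hindlimb selector, 3.64, with *Hoxd11* (3.23) and *Hoxd9* (3.18) lowest.

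Markers of leukocytes, endothelium, fibroblasts, adipocytes, liver, brain and pancreas were for the most part near background. Of 12 leukocyte markers 0 were high and 9 near background, with *Ptprc* at 2.88, 2.88 and 2.90 and the highest, *Itgam*, at 4.75. Of 10 endothelial markers 8 were near background, with *Pecam1* at 3.75 in each culture. Fibroblast and fibro-adipogenic markers were near background in 8 of 11, with *Pdgfra* at 3.42, 3.47 and 3.33. Adipocyte markers were near background in 6 of 7, and those of liver, brain and pancreas in 14 of 15. Next to 49.5% of all probe sets in that band, more than 70% of the markers in each of these lists were there. The other low leukocyte members were *Cd68* (4.53) and *Laptm5* (4.15), both just in the middle band, then *Spi1*, *Csf1r*, *Tyrobp*, *C1qa*, *Cd3e*, *C1qb*, *Adgre1* and *Cd14* between 3.15 and 4.06. Endothelial *Vwf* (4.59) and *Sox17* (4.34) were middle, and *Cdh5*, *Kdr*, *Cldn5*, *Erg*, *Tie1*, *Tek* and *Emcn* lay between 2.90 and 4.02.

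Some single markers of other cells were high. *Scx*, the tendon factor scleraxis, read 9.35, 9.23 and 9.32, but *Kera* (3.68), *Tnmd* (3.56), *Thbs4* (3.56) and *Mkx* (3.32) were near background and *Fmod* (4.33) middle. *Dpep1* read 8.69, 8.73 and 8.74, while the fibroblast genes *Dpt* (3.28), *Tcf21* (3.51), *Pi16* (3.69), *Thy1* (3.96) and *Cd34* (4.02) were near background and *Col1a1* and *Clec3b* (4.20) middle. Of 10 pericyte and smooth muscle markers, *Des*, *Rgs5* (8.58) and *Abcc9* (8.41) were high, *Notch3* (6.49), *Mcam* (5.91) and *Cspg4* (4.40) middle, and *Pdgfrb* (3.92), *Kcnj8* (3.37) and *Higd1b* (2.90) near background with *Myh11* just above. *Erbb3*, which Schwann cells and the muscle side of the junction both make, averaged 9.66, while *Sox10* (3.89), *Mbp* (3.70) and *Cdh19* (2.60) were near background and *Pmp22* (6.10) and *Ngfr* (4.35) middle. Near background were 4 of 6 tendon, 8 of 11 fibroblast, 3 of 10 pericyte and smooth muscle and 3 of 6 Schwann cell markers. The share of all probe sets in that band was 49.5%. High were 3 of 10 pericyte and smooth muscle markers and 1 in each of the others, next to 10% of all probe sets. The part of other cells in these signals was not tested. The adipocyte factor *Pparg* (5.17) was middle, with *Plin1*, *Cidec*, *Retn*, *Lep* and *Adipoq* between 3.14 and 4.10. *Syn1* (5.24) was middle among the liver, brain and pancreas markers, and *Alb* averaged 3.29, *Ins2* 2.59 and *Amy2b* 2.46. The other 11 of that list, *Syt1*, *Gcg*, *Cela1*, *Apoa1*, *Gad1*, *Ttr*, *Cyp2e1*, *Neurod1*, *Snap25*, *Prss1* and *Fgb*, lay between 2.80 and 4.02. *Hand2* (3.60) completed the low cardiac markers.

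Satellite cell markers took a middle place. Of 11, *Megf10* (9.74) and *Sdc4* (8.77) were high, *Gfra1* (7.43), *Cxcr4* (7.25), *Myf5*, *Spry1* (6.91), *Pax7* and *Notch3* were middle, and *Cd34*, *Calcr* (3.45) and *Chodl* (3.29) were near background. Of the 8 above background, 6 were highest in culture 3 and 5 lowest in culture 1, next to 25.2% and 29.9% of all probe sets above background.

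The share of high genes differed between classes of RNA. Of 19686 protein-coding genes 2292 (11.6%) were high. Of 3055 long noncoding RNAs 8 were high, with *H19* first, then *Malat1* (10.99) and *Xist* (9.75). *Xist*, which silences an X chromosome in female cells, was high in each culture, at 9.61, 9.78 and 9.85. The Y-linked *Eif2s3y* (2.74), *Kdm5d* (2.64) and *Uty* (2.62) were near background. Of 534 microRNA genes 6 were high, led by *Mir449b* (11.13), and of 106 small nucleolar RNAs 46 (43.4%) were high.

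Precursors of muscle microRNAs were not among the high ones, next to 1.12% of all 534 microRNA genes that were. Of 10 measured, 3 were middle, *Mir1b* (5.52), *Mir486* (5.35) and *Mir206* (5.14), and 7 near background, *Mir208a* (2.49) and *Mir208b* (2.39) lowest. Near background were also 77.7% of all microRNA genes, so these counts do not set the muscle ones apart. *Mir206*, whose microRNA is made in skeletal muscle as myoblasts differentiate, read 5.02, 5.31 and 5.10. Its mature arms are shown because the array reads the gene and not these short products, which were not measured. They are from RefSeq, build GRCm38.p6, chr1:20679017-20679039 for the 5p arm and chr1:20679055-20679076 for the 3p arm, plus strand, with the seed, bases 2 to 8, in capitals.
miR-206-5p: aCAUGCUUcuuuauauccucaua
miR-206-3p: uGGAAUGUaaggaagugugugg

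Above background, the 10 named genes with the largest SD were *Srsx* (SD 0.98), *Btbd35f17* (0.94), *Xlr5c* (0.88), *Pcdhga6* (0.83), *Lysmd1* (0.81), *Defa30* (0.81), *Olfr119* (0.80), *AY358078* (0.80), *Mup13* (0.79) and *Speer4c* (0.78). *Srsx* read 3.72, 4.82 and 5.67, lowest in culture 1 and highest in culture 3, and *Pcdhga6* 5.76, 6.10 and 4.51, lowest in culture 3. All 10 were in the middle band and none was on a list, while *Myl6*, near background, had an SD of 0.90. Among the 100 most variable named genes, culture 3 was the highest in 67 and culture 1 the lowest in 54.

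In metabolic and contractile lists culture 3 ran low. All 24 respiratory chain genes above background were lowest in culture 3, against 5505 of 12477 (44.1%) of all probe sets above background and 1365 of 2471 (55.2%) of the high ones. The median of culture 3 minus the mean of cultures 1 and 2 was -0.14 for the chain and -0.04 for all probe sets above background, next to a median SD between arrays of 0.093. Of 19 tricarboxylic acid cycle genes 14 were lowest in culture 3 and 17 highest in culture 1, next to 51.6% of all high probe sets highest in culture 1. For 18 of 22 Z-disc genes, 18 of 25 coupling genes and 13 of 18 thin filament genes above background, culture 3 was also lowest. Among near-background probe sets culture 3 was the highest in 44.3%. With the 3 arrays brought to one distribution, a step added after the values were seen, 18 of the 24 chain genes were lowest in culture 3, against 36.5% of all probe sets above background. What set culture 3 apart was not tested.

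**Figure D5:**
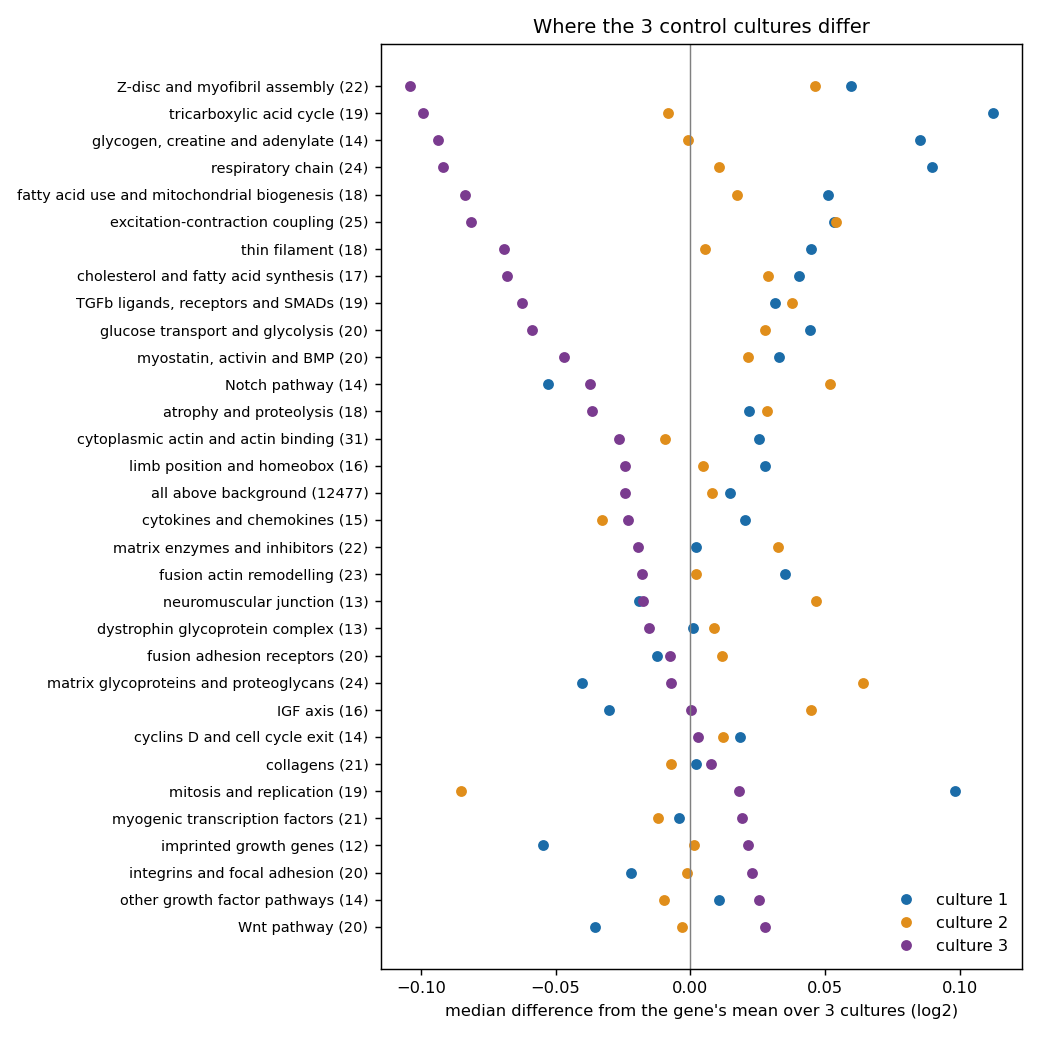
Median difference from each gene's own mean over the 3 cultures (horizontal axis, log2 units) for each list with at least 12 members above background and for all such probe sets, 1 point per culture, with the number of members in parentheses. Culture 3 is lowest for Z-disc, tricarboxylic acid cycle, glycogen and respiratory chain lists, with medians of -0.09 to -0.10, and near 0 for myogenic factors, collagens and integrins.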

How the data were processed

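The authors hybridised RNA of 9 cultures to Affymetrix MouseGene 2.0 ST arrays and deposited log2 values, which the methods say were normalized by RMA in Bioconductor with a custom CDF, version 22, giving 1 probe set per Entrez gene. The submitters' processing notes name RMA and Partek. The genome build, and whether the 9 arrays were normalized together, are not given in the sources used here. Only the 3 control columns were used, and the labels map each to its culture.

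Gene symbols came from the platform annotation. Of 25428 probe sets 24704 carried a single symbol, 723 carried none, and 1 was set aside because another carries its symbol. Means and sample SDs over the 3 arrays, bands, list counts and motif searches were computed in Python 3.11.15 with pandas 2.3.3 and numpy 2.4.6, and figures drawn with matplotlib 3.10.9. Where arrays tied for the lowest or highest value of a probe set, the first of them was counted, which raises counts for culture 1. No test was made, since no groups are compared. The number of arrays limits the precision.

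The 48 lists hold 919 genes, of which 862 were measured, 279 high, 370 middle and 213 near background. Genes on several lists count in each. The members and lists were chosen with earlier results of these data known. Named genes are the 30 with the highest means (no predicted genes, small RNAs, mitochondrial or ribosomal protein genes), all members of the lists of myogenic factors, myosin heavy chains, fusogens and ferlins and of cell type markers, the 3 highest and 2 lowest of each other list, paralog pairs, and the 10 most variable. Further genes were named after their values were seen. Alternatives were other percentiles, another background family, single arrays in place of the mean, median centring, and leaving out each array. Promoter and microRNA sequences are from RefSeq.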

Additional observations from a re-analysis of the deposited data

Results flagged for a closer look

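Of the 723 probe sets without a gene symbol in the annotation used, which enter no comparison above, 418 (57.8%) had a mean above the background limit in the control arrays, which is above the 50.5% found among named probe sets. They were set apart because they carry signal outside the main measurement. Of them 92 (12.7%) were high and 326 middle, and the highest mean was 12.06. They are not named here.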

How the results depend on the processing

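No paired analysis was possible because no groups were compared. Counting from the 95th percentile left 1236 probe sets high in place of 2471, which follows from that rule, and lowered the high count of 31 of 48 lists by up to 6 members. Those that fell by more than a factor of 1.5 included integrins (5 in place of 10), fusion actin remodelling (5 in place of 10), cholesterol synthesis (5 in place of 10), the IGF axis (4 in place of 8), matrix enzymes (2 in place of 7), myostatin, activin and BMP (2 in place of 6), fusogens and ferlins (2 in place of 4) and TGFβ targets (0 in place of 2). Of the 19 tricarboxylic acid cycle genes 13 stayed high. The other alternatives kept both total counts within a factor of 1.5. The high count ran between 2311, where the lowest array had to reach the limit, and 2543, with unnamed probe sets included. The near-background count was 12227 as reported, 16438 with the 99th percentile of the receptors (limit 5.50), 15866 with keratin-associated and beta-defensin genes as the reference (limit 5.26), and between 11761 and 12648 without one of the control arrays in turn. Either wider limit would move weak members such as Msc, Chrd, Tgfb2, Ache or Gapdh into the background band, and changed the background count of 44 and 43 of 48 lists, by up to 13 and 12 members. Both limits put most members near background in the lists of collagens, mitosis, Wnt, cytokines, interferon response, matrix glycoproteins, other growth factors and Schwann cells, and the first also in the myosin heavy chains (6 of 10). Leaving out 1 array changed the high count of at most 4 lists, by 1 member each. The means of 20 named genes, recomputed with median centring and without each array, moved by at most 0.217 and by less than 1 SD in all cases. Of the 10 most variable genes 8 remained after median centring and 5 with the background band included. Brought to one distribution, which was added after the data were seen, 18 of 24 respiratory chain genes and 50 of 82 contractile and coupling genes, in place of 24 and 62, were lowest in culture 3. Median centring gave 24 and 72, against 63.5% of all probe sets above background in place of 44.1%. Signal close to the receptors' level limits what can be said of low genes.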
